A study of Drosophila melanogaster with 6 samples.

Results

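The genes described here are 37 genes of salt and water balance: pumps, channels, exchangers, cotransporters, aquaporins, carbonic anhydrases and the 2 kinases *Wnk* and *fray*, which regulate cotransport. They were listed by name for their function, with no threshold on their values but with earlier results of these data known. The subunits of the V-ATPase proton pump were left out. All 37 were found among the 17617 genes listed for each library. Of these, 32 had a value above 9 in at least 1 library and entered the test, while *Nhe2*, *Irk3*, *bib*, *Eglp1* and *Eglp3* did not. The value of 9 is the median over the genes that had any value, and 7155 genes passed the same filter.

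RNA was sequenced from dissected hindguts of adult female *Drosophila melanogaster* in 3 Control and 3 RasV12 libraries, each from a separate pool of hindguts. Control flies carried byn-G4 tub-G80ts U-gfp, and RasV12 flies carried the same transgenes plus U-RasV12, a constitutively active form of the GTPase Ras. Flies of both groups were reared at 18°C and kept at 29°C for 7 days as adults, so that the temperature-sensitive Gal80 repressor no longer blocked Gal4 and both groups made GFP. The byn driver acts in the enterocytes of the hindgut, whereas each library holds RNA of the whole dissected tissue without the rectum, and the labels name its cells as enterocytes and muscle.

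Primary urine from the Malpighian tubules enters the hindgut, whose epithelium takes back ions and water and passes the rest on. The Na+/K+ pump exports sodium and imports potassium at the cost of ATP, and the gradients it sets drive exchangers, cotransporters and channels. Carbonic anhydrases turn carbon dioxide and water into bicarbonate and protons, the ions that sodium/proton and anion exchangers carry, and aquaporins pass water or glycerol.

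Values are normalized counts, which the authors obtained by scaling each library with a single factor before rounding. Library totals lay between 932389 and 1031380. The number of reads behind a value is unknown, and low values are coarse in Control replicates 1 and 3, where 17 and 15 of the whole numbers up to 60 never occur. Log2 values of libraries of the same group correlated across genes with Pearson's r between 0.832 and 0.918. *Ras85D*, the gene from which the transgene derives, had 55, 48 and 54 normalized counts in Control against 85, 96 and 105 in RasV12 libraries (log2 fold change 0.85, SE 0.27, limma's adjusted p = 0.0455, and 0.0570 to 0.140 when any 1 library was left out). Of 6 hindgut markers, *byn*, *fkh* and *otp* were lower in RasV12, *Abd-B* and *bowl* did not pass the threshold, and *en* was at 0 in all libraries. The summed level of these 6 genes ranged from 726 to 1062 in Control and from 361 to 415 in RasV12. *byn*, whose regulatory region drives Gal4, had 299, 283 and 450 normalized counts in Control against 60, 144 and 97 in RasV12 libraries.

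Transcripts of the 37 genes were together less abundant in each RasV12 library than in any Control library, and the gap lay in the most abundant genes. The summed normalized count of the 37 genes was 15673, 14447 and 16083 in the Control libraries against 6277, 7341 and 7820 in the RasV12 libraries. It thus made up 1.59% ± 0.0377 of a Control library and 0.705% ± 0.0674 of a RasV12 library (SD, n = 3 each, exact permutation test p = 0.1, two-sided). With 3 libraries against 3, 0.1 is the smallest p this test can give. Because QuantSeq reads the ends of polyadenylated transcripts, about once per transcript, values of different genes can be added and compared without a correction for length. The 7 most abundant genes, *Irk2*, *Atpalpha*, *NKCC*, *Nha1*, *CAH1*, *Nha2* and *nrv1*, held between 93.6% and 95.5% of the sum in Control and between 86.6% and 89.9% in RasV12 libraries. The other 30 genes together had 718 to 918 normalized counts in Control against 746 to 842 in RasV12, so their summed level overlapped between the groups.

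Among the 32 genes tested, 9 passed an adjusted p of 0.05 (limma, Benjamini-Hochberg over all 7155 genes). This was 28.1% of the tested transport genes, against 16.7% of all genes tested. Lower in RasV12 were 7 genes (21.9%, against 7.7% of all genes), namely *Atpalpha*, *nrv1*, *Nha1*, *Nha2*, *CAH1*, *Calx* and *fray*. Higher were 2 genes, *Irk1* and *Ncc69* (6.25%, against 9.04% of all genes). The 3 RasV12 libraries did not overlap the 3 Control libraries in 14 of the 32 genes (43.8%, against 32.9% of all genes). The 32 genes had a median log2 fold change of -0.20, and all genes tested had one of 0.02. Abundant genes passed the threshold more often in general. Of the 13 transport genes with a mean of at least 50, 6 passed and all 6 were lower, while of the 2089 genes of the series at that level 34.7% passed and 17% were lower.

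**Figure D1:**
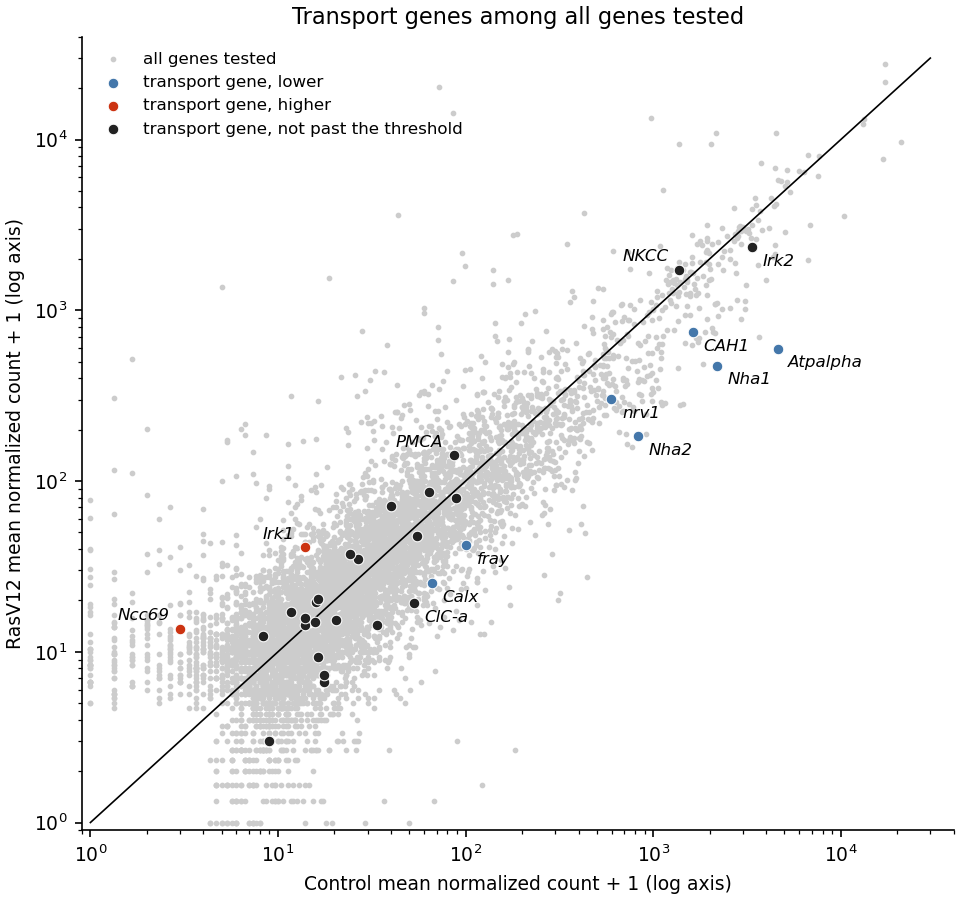
Mean normalized count in the 3 RasV12 libraries (vertical) against the mean in the 3 Control libraries (horizontal), both with 1 added and on log axes, for the 7155 genes tested (grey), with the 32 tested transport genes coloured by their call and a line of equal values. *Atpalpha*, *Nha1*, *Nha2*, *CAH1* and *nrv1* lie below the line at high levels, *NKCC* lies just above it, and the genes called higher, *Irk1* and *Ncc69*, sit at low levels.

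Markers of some other cells were lower in RasV12 as well, most of all those of muscle. Of 11 muscle genes, 10 were lower in RasV12, and *bt* did not pass the threshold. The summed level of the 11 ranged from 9701 to 11290 in Control and from 3531 to 3814 in RasV12, with a median log2 fold change of -1.58. The fat body list also fell in part, with *Yp1* and *Yp2* lower, 4 of its 7 genes tested, summed levels of 3942 to 10425 in Control against 2104 to 4119 in RasV12, and *Fbp1* and *Fbp2* at 0 throughout. Among 5 glial genes *Gs2* was lower, with *repo* and *alrm* at 0 in all libraries and summed levels, nearly all from *Gs2*, of 453 to 765 in Control against 198 to 397 in RasV12. *moody*, the other glial gene tested, had 3, 4 and 1 in Control against 9, 16 and 12 in RasV12 and did not pass the threshold. No gene passed the threshold in the lists for Malpighian tubule, midgut, neuron and trachea, and none of 5 hemocyte genes was tested, with *NimC1*, *eater* and *He* at 0. Summed levels of the 6 neuronal genes were 42 to 101 in Control against 62 to 147 in RasV12, and those of the 4 tracheal genes 24 to 53 against 14 to 21. The summed level of the 10 midgut genes was 21 to 172 in Control against 149 to 252 in RasV12, with *betaTry*, *thetaTry* and *Jon25Biii* at 0. The part of these cells in the transport results was not tested, and in bulk tissue fewer cells of a type cannot be told apart from less RNA per cell.

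Among the 37 genes, the fall was largest for the catalytic subunit of the sodium pump. *Atpalpha* (FBgn0002921; BDGP6.54 chromosome 3R, 20948714 to 20976239) encodes the catalytic subunit of the Na+/K+ pump. It had 4119, 4924 and 4768 normalized counts in the Control libraries against 845, 521 and 417 in the RasV12 libraries. All Control libraries lay far above all RasV12 libraries, and the spread within either group was small beside the gap. The means of 4604 ± 427 and 594 ± 223 (SD, n = 3 each) differ 7.75-fold. The log2 fold change was -3.01 (SE 0.24, limma's adjusted p = 2.71e-06), and it stayed between -3.30 and -2.79 with any single library left out. By its mean, *Atpalpha* ranked 22 among all genes listed in Control against 268 in RasV12 hindguts.

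The pump also needs a β subunit, which brings the catalytic subunit to the cell surface. *nrv1* (FBgn0015776; chromosome 2L, 6778555 to 6786861), the main β-subunit gene in this tissue, had 576, 593 and 626 normalized counts in Control against 285, 276 and 341 in RasV12. The groups were again fully apart, but by less than for *Atpalpha* (log2 fold change -1.0, SE 0.20, limma's adjusted p = 0.00433). Without a variance trend in the fit, its adjusted p was 0.0643. The other β-subunit genes, *nrv2* and *nrv3*, were scarce and did not pass the threshold. *nrv2*, which lies 2908 bases from *nrv1* on the same strand, had means of 13 and 13.3 in Control and RasV12. *nrv3* had means of 16.7 and 5.67 with overlapping libraries. *nrv1* held 95.3% ± 1.52 of the β-subunit transcripts in Control against 94.0% ± 1.03 in RasV12 (SD, n = 3 each, exact permutation p = 0.4).

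The ratio of catalytic to β-subunit transcripts was lower in every RasV12 library. *Atpalpha* exceeded the sum of *nrv1*, *nrv2* and *nrv3* by factors of 6.93, 7.80 and 7.24 in the Control libraries against 2.79, 1.75 and 1.16 in the RasV12 libraries. No RasV12 ratio reached a Control ratio (means 7.32 ± 0.441 and 1.90 ± 0.824, SD, n = 3 each, exact permutation p = 0.1, the smallest possible). *Atpalpha* made up 30.0% ± 3.91 of all transport transcripts in Control against 8.63% ± 4.28 in RasV12 (exact permutation p = 0.1, n = 3 each). Without *Atpalpha*, the summed level of the other transport genes was 10797 ± 1110 in Control against 6552 ± 1012 in RasV12 (SD, n = 3 each). In all, 41 sums, shares and ratios were compared this way, 20 of them reached the smallest p of 0.1 in the exact permutation test, and the lowest adjusted p was 0.205, so none passed.

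**Figure D2:**
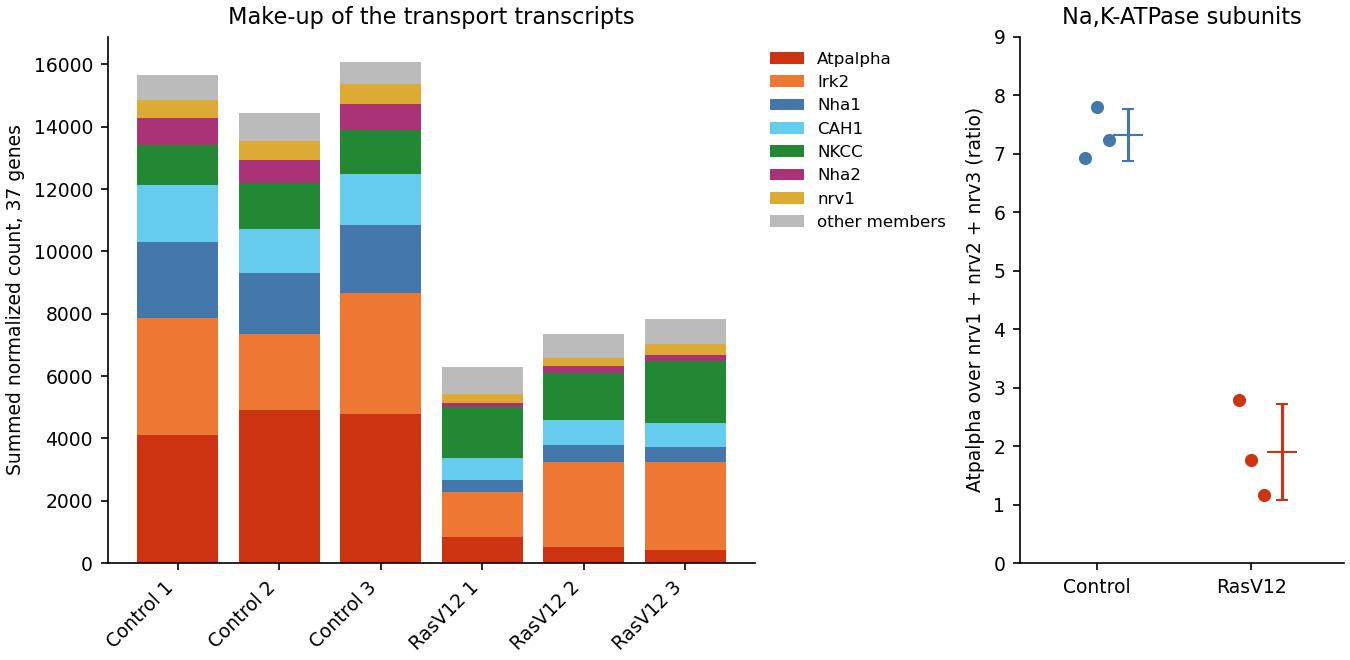
Left, summed normalized count of the 37 transport genes in each library, divided into the 7 most abundant genes and the other 30. Right, ratio of *Atpalpha* to the summed β-subunit genes in each library, with mean and SD (n = 3 each). The largest drops in mean between the columns are those of *Atpalpha*, *Nha1*, *Irk2*, *CAH1* and *Nha2*, of which *Irk2* did not pass the threshold, and the ratio lies between 6.93 and 7.80 in Control and between 1.16 and 2.79 in RasV12.

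Both genes of the cation/proton antiporter family named NHA fell. *Nha1* (FBgn0031865; chromosome 2L, 6860905 to 6870389) had 2437, 1978 and 2170 normalized counts in Control against 394, 534 and 491 in RasV12. Every RasV12 library lay below every Control library, with means that differed 4.64-fold (log2 fold change -2.22, SE 0.20, limma's adjusted p = 7.99e-06). *Nha2* (FBgn0263390; chromosome 3R, 22981459 to 22998528) had 888, 746 and 850 normalized counts in the Control libraries against 139, 206 and 203 in RasV12. Its change was of nearly the same size, 4.53-fold between means (log2 fold change -2.19, SE 0.23, limma's adjusted p = 2.47e-05). Leaving out any single library kept both genes past the threshold.

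The classical sodium/proton exchangers, named NHE, exchange sodium for protons at the plasma membrane or in internal compartments. *Nhe3* had 83, 90 and 92 normalized counts in Control against 63, 93 and 81 in RasV12, so that its libraries overlapped (log2 fold change -0.18, SE 0.27, limma's adjusted p = 0.711). *Nhe1* had means of 10.7 and 16.0 and did not pass the threshold, and *Nhe2*, at 3 to 7 in every library, was not tested. The summed level of the 5 NHA and NHE genes went from 3126 ± 303 in Control to 756 ± 123 in RasV12 (SD, n = 3 each, exact permutation p = 0.1). Within that sum, *Nhe3* held 2.85% ± 0.392 in Control against 10.4% ± 0.430 in RasV12, while *Nha1* held 70.2% ± 0.843 and 62.7% ± 1.20 (exact permutation p = 0.1 for each, n = 3 each).

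**Figure D3:**
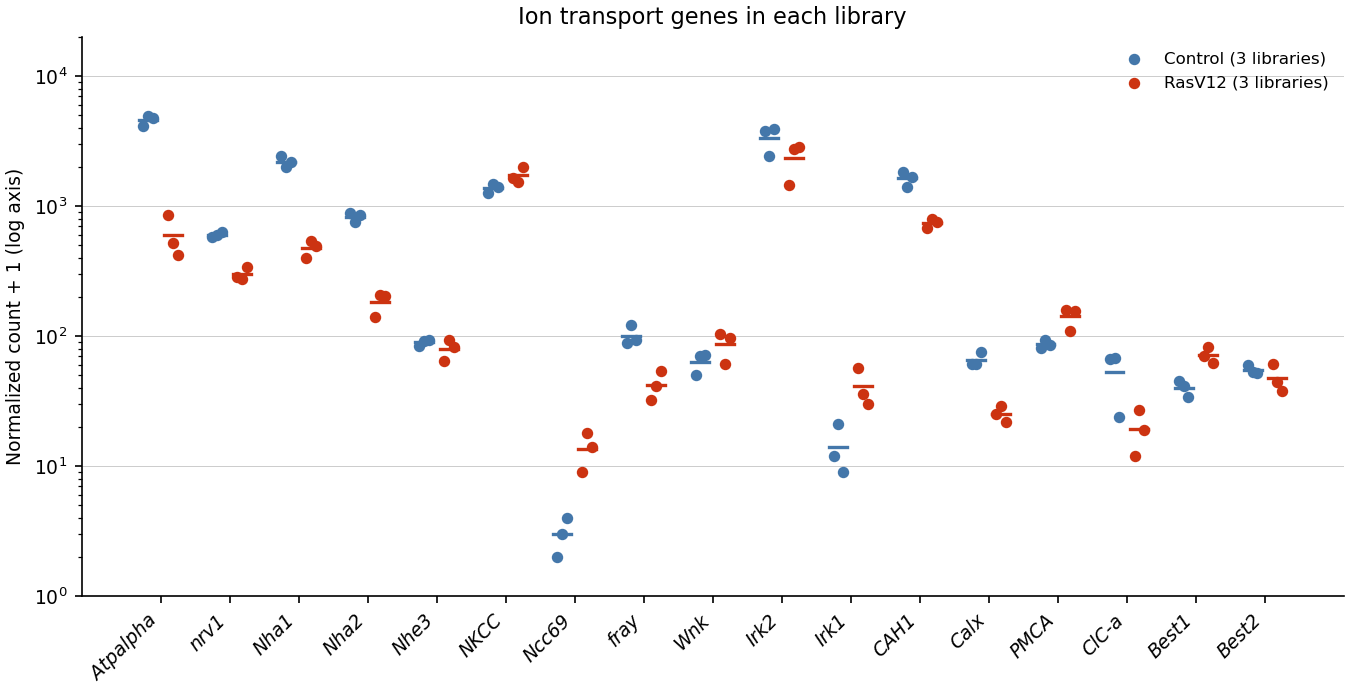
Normalized counts with 1 added, on a log axis, in each of the 3 Control (blue) and 3 RasV12 (red) libraries for 17 transport genes, with a bar at the mean of each group. Libraries of the groups are apart for *Atpalpha*, *nrv1*, *Nha1*, *Nha2*, *CAH1*, *Calx* and *fray*, which were lower in RasV12, and overlap for *Nhe3*, *Irk2*, *Wnk* and *Best2*.

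The abundant cation-chloride cotransporter did not fall with the pump. Genes of this family, SLC12, carry chloride together with sodium, potassium or both. *NKCC* (FBgn0051547; chromosome 3R, 5489505 to 5502702), the family's most abundant gene here, had 1261, 1472 and 1395 normalized counts in Control against 1653, 1534 and 1999 in RasV12. Its RasV12 libraries all lay above its Control libraries, by a small margin that did not pass the threshold (log2 fold change 0.32, SE 0.19, limma's adjusted p = 0.279). *NKCC* was the only one of the 7 most abundant transport genes with a higher mean in RasV12. It held 98.1% ± 0.855 of the summed *NKCC*, *Ncc69* and *kcc* in Control against 97.3% ± 0.726 in RasV12 (SD, n = 3 each, exact permutation p = 0.3). That sum leaves out the further SLC12 genes *CG10413* and *CG12773*, neither of which passed the threshold. *CG10413* had 169, 120 and 145 in Control against 155, 180 and 325 in RasV12. *CG12773* had 35, 31 and 21 against 39, 41 and 32.

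*Ncc69*, a sodium-potassium-chloride cotransporter that loads ions into tubule cells for urine secretion, rose from a very low level. It had 1, 2 and 3 normalized counts in Control against 8, 17 and 13 in RasV12. The groups did not overlap (log2 fold change 2.19 on the log2(value + 1) scale, SE 0.66, limma's adjusted p = 0.0366). *Ncc69* passed the filter of a value above 9 only through RasV12 libraries, so the filter and the call share these values. This call rested on low values: with single libraries left out the adjusted p ranged up to 0.148 and passed only without Control replicate 3. With limma-voom it was 0.0988. The 10 Malpighian tubule genes had summed levels of 202 to 491 in Control against 125 to 226 in RasV12. Most of this came from *Alp4* and *List*, neither of which passed the threshold. *Alp4* had 353, 68 and 37 in Control against 33, 35 and 32 in RasV12. *List* had 91, 123 and 161 in Control against 80, 122 and 181 in RasV12. Others of the list were scarce, with at most 3 for *Uro* and 1 for *CapaR*. *kcc*, a potassium-chloride cotransporter that moves ions out of cells, had means of 25.7 in Control against 34.0 in RasV12 with overlapping libraries.

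Of the kinases that control these cotransporters, *fray* was lower in RasV12. Wnk senses intracellular chloride and phosphorylates Fray, and Fray phosphorylates and activates SLC12 cotransporters that take up sodium. *fray* (FBgn0023083; chromosome 3R, 18573091 to 18589459) had 87, 121 and 92 normalized counts in the Control libraries against 31, 40 and 53 in RasV12. It was lower in each RasV12 library than in any Control library (log2 fold change -1.27, SE 0.31, limma's adjusted p = 0.0119). Without a variance trend its adjusted p was 0.0547, and without Control replicate 2, RasV12 replicate 1 or RasV12 replicate 2 it was 0.0576, 0.0525 and 0.0543. *Wnk* had 49, 69 and 70 normalized counts in Control against 102, 60 and 95 in RasV12, and these overlapped (log2 fold change 0.43, SE 0.31, limma's adjusted p = 0.380).

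Among potassium channels, the dominant inward rectifier stayed abundant. *Irk2* (FBgn0039081; chromosome 3R, 23513617 to 23519445) passes potassium more readily into than out of cells. It had 3759, 2420 and 3896 normalized counts in Control against 1437, 2730 and 2827 in RasV12. Control replicate 2 lay below 2 of the RasV12 libraries, and the difference did not pass the threshold (log2 fold change -0.56, SE 0.27, limma's adjusted p = 0.188). *Irk2* was second to *Atpalpha* among the transport genes in Control hindguts and first in RasV12 hindguts. *KCNQ*, a voltage-gated potassium channel, had means of 13 and 14.7, and *Irk3* had at most 3 in any library.

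*Irk1*, an inward rectifier as well, was called higher, but a neighbouring gene shares its end. It had 11, 20 and 8 normalized counts in Control against 56, 35 and 29 in RasV12 (log2 fold change 1.59, SE 0.44, limma's adjusted p = 0.0251). Exons of *CG46310* lie on the same strand within 500 bases of an annotated transcript end of *Irk1*, and *CG46310* had nearly the same values, 11, 20 and 8 in Control against 62, 37 and 29 in RasV12. Reads of *Irk1* and *CG46310* cannot be told apart in these values. Exons of *cnc* overlap on the opposite strand. Values of *cnc* were 266, 128 and 127 in Control against 91, 77 and 107 in RasV12. They were thus lower in RasV12, without passing the threshold (limma's adjusted p = 0.0864). The call for *Irk1* was also lost when any library but Control replicate 2 was left out, with an adjusted p of up to 0.132.

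No chloride channel gene passed the threshold, and their summed level overlapped between the groups. The sum of *ClC-a*, *ClC-b*, *ClC-c*, *Best1* and *Best2* was 183 ± 46.2 in Control against 190 ± 8.74 in RasV12 (SD, n = 3 each, exact permutation p = 0.9). *Best1*, a bestrophin chloride channel that opens on cell swelling, had 44, 40 and 33 normalized counts in Control against 69, 81 and 61 in RasV12. These did not overlap, but the difference missed the threshold (log2 fold change 0.83, SE 0.30, limma's adjusted p = 0.0719). *Best2*, a second bestrophin, had 59, 52 and 51 in Control against 60, 43 and 37 in RasV12, with overlap (log2 fold change -0.23, SE 0.31, limma's adjusted p = 0.656).

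*ClC-a*, a chloride channel of the plasma membrane, had 66, 67 and 23 normalized counts in Control against 11, 26 and 18 in RasV12. Control replicate 3 lay within the RasV12 range (log2 fold change -1.38, SE 0.47, limma's adjusted p = 0.0590). Without that library the adjusted p was 0.00972, and with a pseudocount of 5 or upper-quartile factors it was 0.0482 and 0.0485. *ClC-b* and *ClC-c*, relatives of chloride transporters of intracellular membranes in mammals, had means of 23.3 and 15.0 in Control against 36.3 and 18.7 in RasV12, with overlapping libraries. As shares of the 5 genes, *ClC-a* held 27.3% ± 9.43 in Control against 9.72% ± 4.17 in RasV12, and *Best1* held 21.7% ± 2.56 and 37% ± 5.33 (SD, n = 3 each, exact permutation p = 0.1 for each).

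The carbonic anhydrases fell through *CAH1*. This gene (FBgn0027844; chromosome 2L, 13803626 to 13809994) had 1827, 1396 and 1660 normalized counts in Control against 682, 794 and 751 in RasV12. The groups lay clearly apart, with means that differed 2.19-fold (log2 fold change -1.13, SE 0.19, limma's adjusted p = 0.00141). *Adat1*, on the opposite strand at its end, had at most 5 in any library. *CAH2* had means of 15.3 and 8.33, and *CAHbeta*, of the separate beta class, had means of 16.7 and 6.33 in Control and RasV12. Libraries of the groups did not overlap for either gene, but neither passed the threshold (limma's adjusted p = 0.369 and 0.10). *CAH1* held 98.1% ± 0.394 of the sum of these 3 genes in Control against 98.0% ± 0.413 in RasV12 (SD, n = 3 each, exact permutation p = 1).

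*Ndae1* and *Prestin*, the genes for bicarbonate and anion exchange among the transport genes listed at the start, were low. Further anion transporter genes, some of them more abundant, are described below. *Ndae1*, a sodium-driven anion exchanger, had means of 19.3 and 14.3, with 36 in Control replicate 2 and 26 in RasV12 replicate 1. *Prestin*, an anion transporter of the SLC26 family, had 13 to 15 in all 6 libraries. Neither passed the threshold (limma's adjusted p = 0.770 and 0.938).

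Of the genes of calcium export, *Calx* passed the threshold. *Calx* (FBgn0013995; chromosome 3R, 20978183 to 21015613) exports calcium in exchange for sodium and so depends on the gradient of the sodium pump. It had 60, 60 and 75 normalized counts in Control against 24, 28 and 21 in RasV12. No RasV12 library came near a Control library (log2 fold change -1.38, SE 0.32, limma's adjusted p = 0.00882). *Calx* starts 1943 bases past the end of *Atpalpha* on the same strand. *PMCA* (FBgn0259214; chromosome 4, 328193 to 358917) exports calcium at the cost of ATP. It had 80, 92 and 84 normalized counts in Control against 157, 109 and 156 in RasV12, all higher, without passing the threshold (log2 fold change 0.70, SE 0.26, limma's adjusted p = 0.0859). *Rnf11*, on the opposite strand at the end of *PMCA*, had 21, 22 and 17 in Control against 48, 33 and 33 in RasV12, and whether reads were assigned by strand is not given in the sources used here.

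Genes for water and glycerol channels were scarce in these hindguts. The 7 genes of the aquaporin family had summed levels of 60, 90 and 40 in Control against 40, 58 and 41 in RasV12 (exact permutation p = 0.4, n = 3 each). *Drip*, a water channel, had 1, 7 and 16 in Control against 1, 1 and 4 in RasV12, so that single libraries set its group means. *Prip*, a second water channel, had 21, 13 and 12 in Control against 10, 40 and 8 in RasV12, with RasV12 replicate 2 above the rest. *Eglp4*, one of the glycerol channels, had 66 in Control replicate 2 and 10 to 21 in the other libraries. *Eglp2* had means of 7.33 and 11.3, *bib* had 1 in a single RasV12 library, and *Eglp1* and *Eglp3* were listed at 0 throughout. None of the 4 tested genes passed the threshold (limma's adjusted p from 0.315 to 0.996).

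**Figure D4:**
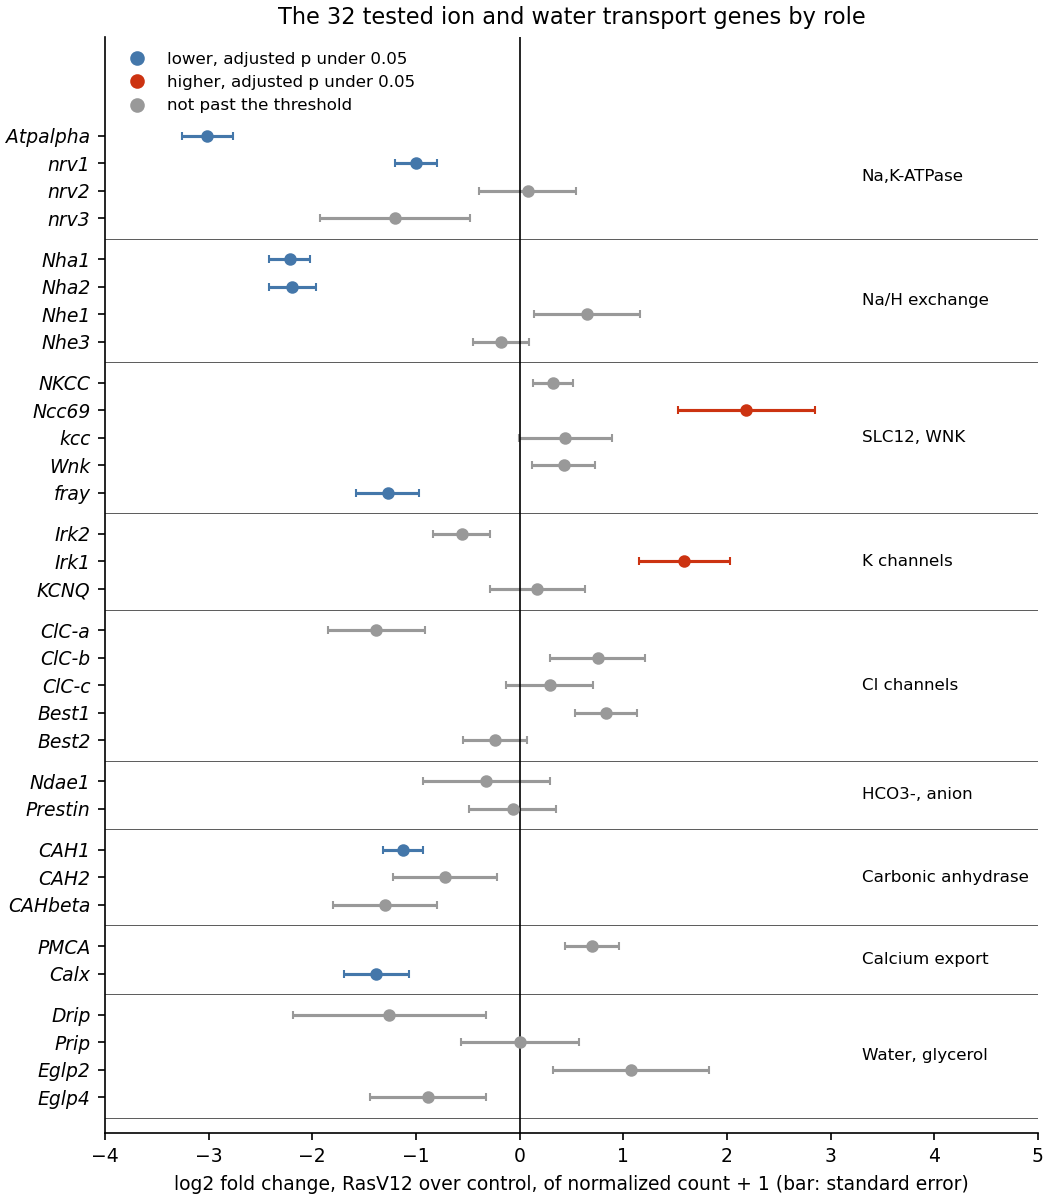
Log2 fold change of RasV12 over Control with its standard error, on log2(value + 1), for the 32 tested transport genes in order of role. The 7 genes called lower lie between -3.01 and -1.0, the 2 called higher at 1.59 and 2.19, and bars are widest for scarce genes such as *Drip* and *Eglp2*.

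Of the 9 calls, 5 were kept under each of the 18 alternative settings tried, including the removal of any single library. These were *Atpalpha*, *Nha1*, *Nha2*, *CAH1* and *Calx*, all lower in RasV12.

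Other transport genes were taken from 10 lists of pump, cotransporter, channel, carbonic anhydrase and exchanger genes and of water-balance hormones and receptors. Of 85 further genes found, 33 were tested and 26 were at 0 in all libraries. Of the 33, 9 passed the threshold (27.3%, against 16.7% of all genes tested), 7 lower (21.2%, against 7.7%) and 2 higher in RasV12 (6.06%, against 9.04%), and the median log2 fold change of the 33 was -0.07. The summed level of the 85 genes was 2170, 2395 and 2114 in Control against 2989, 3330 and 3332 in RasV12. It was thus higher in every RasV12 library, but through a single gene. *CG6125* alone went from 139, 141 and 139 in Control to 1610, 1881 and 1703 in RasV12. This rise exceeds that of the sum, so without *CG6125* the summed level of the 85 genes was lower in RasV12. The further Na+/K+ pump genes, among them *JYalpha*, were at 0 in all libraries.

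In the SLC26 anion transporter family, 2 genes changed in opposite directions. *CG6125* had 139, 141 and 139 normalized counts in Control against 1610, 1881 and 1703 in RasV12, 12.4-fold between means (log2 fold change 3.62, SE 0.20, limma's adjusted p = 6.09e-08). Its level in RasV12 hindguts was thus close to that of *NKCC*. *CG5404* had 89, 163 and 153 in Control against 16, 11 and 15 in RasV12, 9.64-fold lower between means (log2 fold change -3.15, SE 0.34, limma's adjusted p = 4.10e-05). The 3 other tested genes of this list did not pass the threshold, and neither did *Prestin*.

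Of the further carbonic anhydrase genes, 2 were lower as well. *CAH9* had 313, 352 and 182 normalized counts in Control against 71, 59 and 72 in RasV12 (log2 fold change -2.0, SE 0.28, limma's adjusted p = 3.30e-04). *CAH7* had 22, 30 and 12 in Control against 5, 0 and 1 in RasV12 (limma's adjusted p = 0.00989). *CAH3*, the only other one tested, had 35, 31 and 32 in Control against 44, 41 and 45 in RasV12, and did not pass the threshold.

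*Mo25*, a scaffold that stimulates Fray, was lower together with *fray*, with 115, 148 and 174 normalized counts in Control against 90, 47 and 56 in RasV12 (log2 fold change -1.20, SE 0.30, limma's adjusted p = 0.0161). *Indy*, which carries citrate, had 157, 132 and 139 in Control against 24, 37 and 24 in RasV12 (log2 fold change -2.32, SE 0.29, limma's adjusted p = 1.41e-04). *Letm1*, a cation/proton exchanger of mitochondria, and *Sh*, a voltage-gated potassium channel, were also lower (log2 fold changes -0.94 and -1.93, limma's adjusted p = 0.0181 and 0.0236). *ITP*, which encodes the antidiuretic ion transport peptide, had 0, 4 and 1 in Control against 11, 8 and 15 in RasV12 (limma's adjusted p = 0.0454). The filter was passed by *ITP* only through RasV12 libraries and by *CAH7* and *Sh* only through Control libraries, the group where each was higher. With single libraries left out, the adjusted p rose to at most 0.0881 for *Mo25*, 0.0636 for *Letm1*, 0.0734 for *Sh*, 0.172 for *ITP* and 0.0621 for *CAH7*, whereas *CG6125*, *CG5404*, *Indy* and *CAH9* kept their calls.

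**Figure D5:**
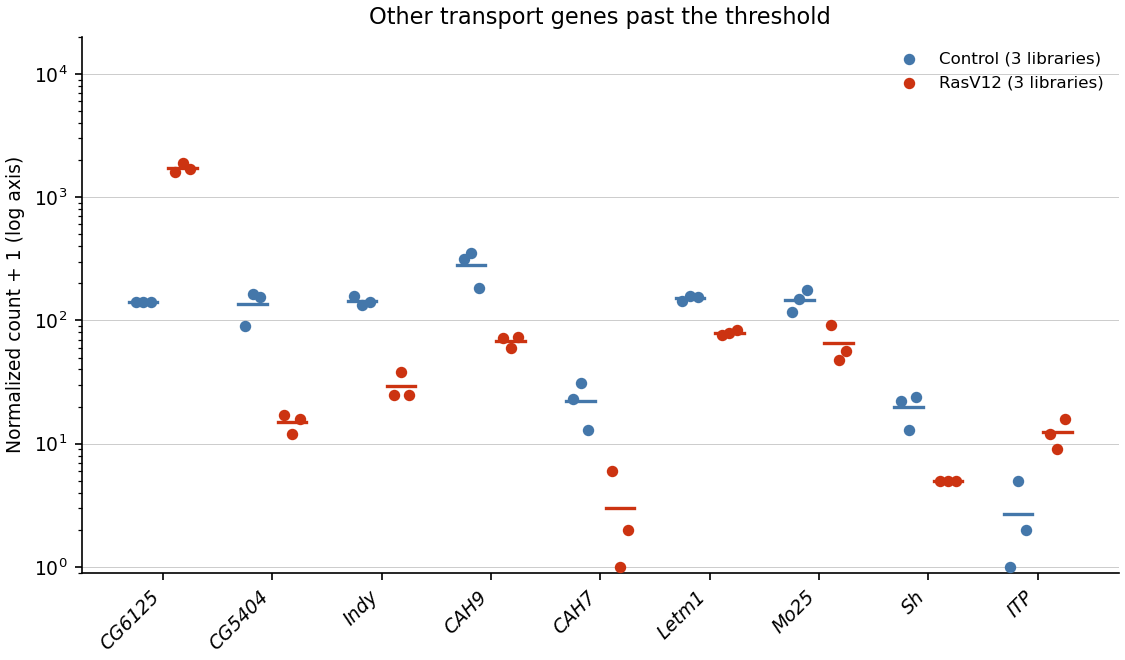
Normalized counts with 1 added, on a log axis, in each of the 3 Control (blue) and 3 RasV12 (red) libraries for the 9 other transport genes past the threshold, with a bar at each group mean. *CG6125* and *ITP* are higher in RasV12, and the other 7 genes are lower.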

How the data were processed

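Per the labels and the methods of the study, QuantSeq 3′ libraries were sequenced on an Ion Proton. Reads were aligned to dm6 with hisat2 and then bowtie2, and the authors tested genes through metaseqR2 with DESeq and its utr setting. Tool versions and further details of the counting are not given in the sources used here. The deposited signal of a gene is its read count, which the authors scaled by 1 factor per library and rounded to whole numbers. Because these are not raw counts, values were analysed as log2(value + 1) with limma 3.58.1 in R 4.3.3 (empirical Bayes with a variance trend, two-sided, Benjamini-Hochberg over the genes tested, adjusted p under 0.05). Genes entered the test with a value above 9 (the median) in 1 or more libraries, 7155 of 11086 with any value. Fold changes on this scale understate the change of scarce genes. Family sums and shares were compared with exact permutation tests over libraries in R. These p-values were adjusted by Benjamini-Hochberg with scipy 1.17.1 in Python 3.11.15.

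Names came from a table of gene identifiers that matched 17519 of 17617, and positions from the Ensembl 115 annotation of BDGP6.54. Samples were grouped by the genotype in the labels. Genes with an adjusted p under 0.05 or a mean of at least 50 are given in every library, other tested members by their groups, and other transport genes when past the threshold. Further genes named were chosen after their values were seen. The members and lists were chosen with earlier results of these data known. Alternatives were other scaling factors, pseudocounts, filters, variance models, a replicate block and the removal of each library. The fit was tested on simulated data. Precision is limited by 3 libraries per group, and counts of reads per value are unknown.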

Additional observations from a re-analysis of the deposited data

How the results depend on the processing

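None of the 9 transport genes and 9 other transport genes past the threshold changed direction under any alternative, and alternatives were not run for the marker genes. The count of transport genes called lower (7) stayed between 5 and 8, and with single libraries left out between 6 and 8. The count called higher (2) was 1 with no filter, with at least 10 in 3 or more libraries, with no variance trend, with limma-voom and with the replicate block, and 0 to 1 with single libraries left out. Same-numbered replicates gave no sign of pairing, which cannot settle how the samples were collected. Deviations of same-numbered libraries from their group means correlated at -0.046, 0.0041 and -0.012, and those of other pairs at -0.058 to 0.070. The replicate block left 578 genes higher and 480 lower. The other transport genes called higher (2) were 1 with library size alone, pseudocount 0.5, no filter, at least 10 in 3 or more libraries, limma-voom and the replicate block, and 1 to 2 with single libraries left out, where those called lower (7) were 4 to 7. The median log2 fold change of the transport genes (-0.20) was -0.27 with library size alone, -0.26 with upper-quartile factors, -0.27 with limma-voom, and -0.25 to -0.074 with single libraries left out, nearest 0 without RasV12 replicate 3. Over all genes, 647 higher and 551 lower became 427 and 277 without a variance trend, and 334 to 629 and 270 to 528 with single libraries left out, lowest without RasV12 replicate 2. The causes of these shifts were not tested. Scarce genes such as the aquaporins, *Ncc69* and *ITP* are limited by depth.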
